A study of Mus musculus with 6 samples.

Results

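The 6 collagen VI chain genes of the mouse, Col6a1 to Col6a6, were examined in lung RNA as a set of transcripts whose proteins are built together. All 6 of these symbols were found among the 49568 genes of the normalized count table, and all 6 passed the filter on low values (10 or more normalized counts in 3 or more libraries), as did 16879 genes in all. Lungs of Col6a1-/- mice were compared with lungs of wildtype mice, both labelled as C57BL/6 and 6 weeks of age, with 3 libraries per genotype. Each library was made from total RNA of the right lung lobes, after the vessels had been rinsed with buffer, and pooled the RNA of 2 animals, so a library is a pool and not a single mouse. Neither the altered part of Col6a1 nor the way the allele was made is stated in the labels. The column of wildtype replicate 2 is marked New, with no explanation in the labels.

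Collagen VI is a beaded microfibril that lies beside basement membranes and between fibroblasts and their matrix. An α1 chain, an α2 chain and an α3 chain wind into a short triple helix inside the cell, the monomers pair into dimers and tetramers held by disulfide bonds, and the tetramers are secreted and joined end to end. Because the α1 chain takes part in every monomer of this kind, cells without it are known to secrete little collagen VI even where the other chains are made. The α4, α5 and α6 chains, encoded by Col6a4, Col6a5 and Col6a6, resemble the α3 chain and are thought to take its place in the monomer.

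The members lie in 3 places of the genome (GENCODE M21, GRCm38), and all 6 are read from the minus strand. Col6a1 (ENSMUSG00000001119.7) spans chr10:76708792-76726168 and Col6a2 (ENSMUSG00000020241.13) spans chr10:76595762-76623630, with a gap of 85.2 kb between them and Col6a2 downstream of Col6a1. Col6a3 (ENSMUSG00000048126.16) stands alone at chr1:90765923-90843971. Col6a6 (ENSMUSG00000043719.14, chr9:105687809-105828160), Col6a5 (ENSMUSG00000091345.9, chr9:105856078-105960643) and Col6a4 (ENSMUSG00000032572.9, chr9:105989454-106096783) lie in a row, with gaps of 27.9 kb and 28.8 kb between neighbours.

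The 250 bases before the RefSeq start of the 3 core chain genes are shown because the first 2 of these genes were both lower in Col6a1-/- lungs, while the other, Col6a3, was not called. The sequences are from RefSeq (GRCm38.p6, minus strand, 5′ to 3′), and a promoter entry was found for all 6 members. Capitals mark matches, on either strand, to TATAAA (the TATA box), to CCAAT (the core of the CCAAT box), to GGGCGG (a GC box), to the pyrimidine-rich letters CCTCCC, and to TGANTCA (the letters bound by AP-1 factors). Col6a1 stands at chr10:76726045-76726294, Col6a2 has annotated starts with windows at chr10:76623631-76623880 and chr10:76623405-76623654, and Col6a3 stands at chr1:90843972-90844221.
Col6a1: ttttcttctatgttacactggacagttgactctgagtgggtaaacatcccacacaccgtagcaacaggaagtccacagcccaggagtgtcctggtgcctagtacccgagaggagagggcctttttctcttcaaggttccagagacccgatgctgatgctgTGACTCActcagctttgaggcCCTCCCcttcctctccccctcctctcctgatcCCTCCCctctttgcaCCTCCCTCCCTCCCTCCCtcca
Col6a2, outer start: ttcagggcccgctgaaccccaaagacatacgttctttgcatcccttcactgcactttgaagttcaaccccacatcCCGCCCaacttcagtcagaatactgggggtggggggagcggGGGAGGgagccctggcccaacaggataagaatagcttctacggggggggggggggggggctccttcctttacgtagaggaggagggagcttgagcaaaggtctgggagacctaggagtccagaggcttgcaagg
Col6a2, inner start: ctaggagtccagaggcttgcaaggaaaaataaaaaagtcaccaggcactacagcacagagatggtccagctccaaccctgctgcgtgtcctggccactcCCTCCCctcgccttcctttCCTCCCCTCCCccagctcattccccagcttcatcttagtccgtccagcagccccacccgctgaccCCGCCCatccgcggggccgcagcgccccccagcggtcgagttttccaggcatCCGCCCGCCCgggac
Col6a3: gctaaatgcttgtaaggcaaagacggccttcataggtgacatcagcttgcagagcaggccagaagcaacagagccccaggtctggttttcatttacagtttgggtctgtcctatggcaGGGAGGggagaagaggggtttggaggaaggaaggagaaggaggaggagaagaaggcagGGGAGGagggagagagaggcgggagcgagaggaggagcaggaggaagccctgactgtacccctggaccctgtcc
None of these windows held TATAAA or CCAAT, which were found in 12.4% and 33.8% of the 32851 promoter windows of this length. The Col6a1 window held 6 matches to CCTCCC, of which those 22, 18, 14 and 10 bases before the start overlap in 1 run, and 1 match to TGANTCA 90 bases before it. CCTCCC was found in 38% of all promoter windows and TGANTCA in 6.75%. The inner Col6a2 window held 3 matches each to GGGCGG, which 32.7% of all windows hold, and to CCTCCC, and 14 CpG pairs against 3 in the Col6a1 window and a median of 6 over all windows. The outer Col6a2 window held 1 match to each of these 2 motifs, and the Col6a3 window held 2 matches to CCTCCC only. TGANTCA was matched in the Col6a1 window and in no other window of a member. The RefSeq start of Col6a1 lies 124 bases inside the GENCODE gene span given above, and the inner Col6a2 start lies 226 bases inside its own. All marked matches in these 2 windows therefore fall within the GENCODE genes. The outer Col6a2 start and the Col6a3 start are the same in both annotations. These matches are a description of letters, and the files hold no measurement of binding.

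The libraries held 28055414 to 37904878 reads assigned to genes. Of the lung's defining cells, the alveolar type 2 markers were abundant, and their summed normalized counts were 777720 to 948768 in Col6a1-/- and 852925 to 960741 in wildtype libraries. The pools differed in the sex of the animals. The mean level of Y-linked genes, as a percent of that in Col6a1-/- replicate 2, the library with the least Xist, was 72.5%, 100% and 51.1% in Col6a1-/- replicates 1, 2 and 3, against 0.347%, 3.35% and 51.5% in wildtype replicates 1, 2 and 3. By this male share the pools of Col6a1-/- replicate 3 and wildtype replicate 3 were alike, and the lowest values were in the other wildtype pools. Xist was less alike in that pair, at 10486.5 normalized counts in Col6a1-/- replicate 3 and 13591.9 in wildtype replicate 3. Col6a1-/- replicate 1, with a higher male share than Col6a1-/- replicate 3, had 12025.4 for Xist, so the measures did not rank the pools alike.

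Col6a1, the targeted gene and the α1 chain, had 10034, 10616 and 9344 normalized counts in Col6a1-/- replicates 1, 2 and 3, against 19907, 18393 and 22331 normalized counts in wildtype replicates 1, 2 and 3. Every Col6a1-/- library lay below every wildtype library, which is the direction of the labels, and Col6a1 reads remained at 49.5% of the wildtype mean. Col6a1 fell by 1.01 on the log2 scale (95% interval -1.24 to -0.79, limma adjusted p 0.00643). A gene's count sums reads over all its exons, so these values do not show whether the remaining reads come from a transcript that can be translated. This test called 0.0652% of all tested genes, 0.0474% as lower and 0.0178% as higher in Col6a1-/- lungs, and 2 of the 6 chains, Col6a1 and Col6a2, were called lower. An unadjusted p under 0.05 was reached by 3 of the 6 chains, all lower, and by 20.3% of all tested genes, 10.6% as lower.

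Col6a2, the α2 chain, had 9138, 10750 and 8671 normalized counts in Col6a1-/- replicates 1, 2 and 3, against 16605, 15470 and 19860 in wildtype replicates 1, 2 and 3. Every Col6a1-/- library lay below every wildtype library, as in 14.2% of all tested genes. Of the 6 chains 2 had genotypes that did not overlap, against 24.9% of all tested genes in either direction. The change of Col6a2 was -0.86 on the log2 scale (95% interval -1.13 to -0.60, limma adjusted p 0.0435), and its mean was 55.0% of the wildtype mean. This call was close to the threshold: the adjusted p was 0.0528 without Col6a1-/- replicate 1, 0.297 without Col6a1-/- replicate 3, 0.172 without wildtype replicate 1 and 0.0818 without wildtype replicate 2, within a range of 0.00758 to 0.297 when each library was left out in turn. For Col6a1, only the fit without Col6a1-/- replicate 3 lost the call, with an adjusted p of 0.12.

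Col6a3, the large α3 chain whose C-terminal end is released as the fragment endotrophin, had 11176, 9095 and 9043 normalized counts in Col6a1-/- replicates 1, 2 and 3, against 12484, 11153 and 14193 in wildtype replicates 1, 2 and 3. Col6a1-/- replicate 1 overlapped with wildtype replicate 2, and the other Col6a1-/- libraries lay below all wildtype libraries. The log2 fold change of Col6a3 was -0.37 (95% interval -0.63 to -0.11), with a limma adjusted p of 0.141, so it was not called. Its mean level stood at 77.5% of wildtype. After each library was corrected for a spline of transcript length and GC content, the log2 fold change of Col6a3 was -0.11 (limma adjusted p 0.612), while it was -0.90 for Col6a1 (limma adjusted p 0.0197) and -0.71 for Col6a2 (limma adjusted p 0.0456).

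**Figure D1:**
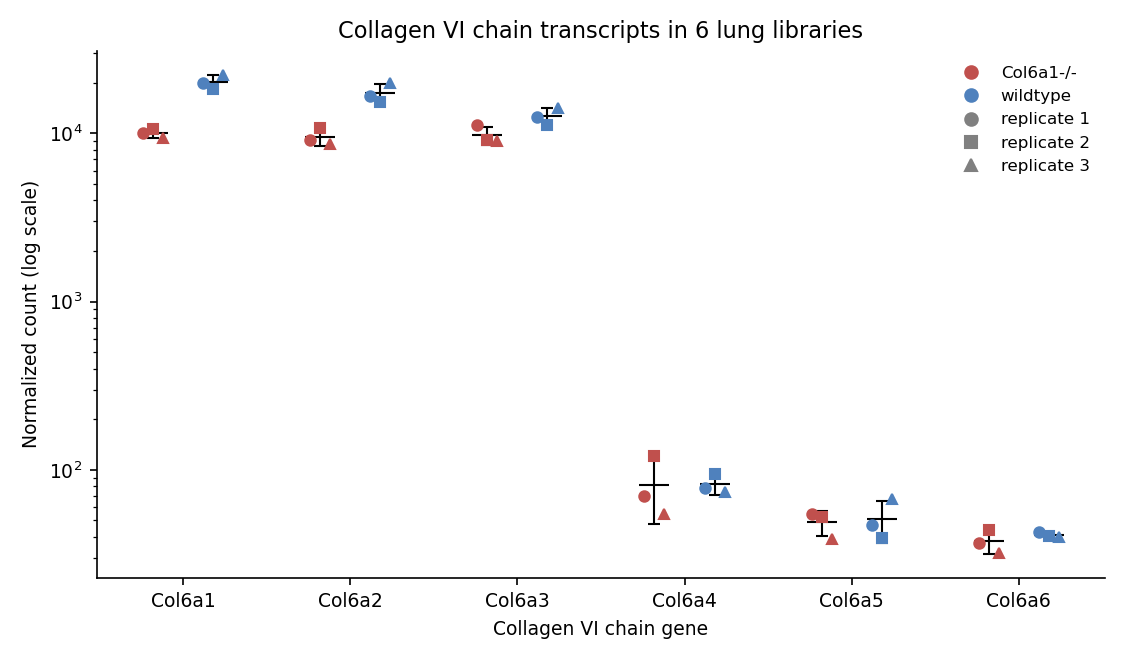
Normalized counts of the 6 collagen VI chain genes (log axis) in 3 Col6a1-/- libraries (red, left) and 3 wildtype libraries (blue, right), with marker shape for the replicate and a bar for the mean ± SD. Col6a1 and Col6a2 show no overlap between genotypes, Col6a3 overlaps by 1 library on each side, and Col6a4 to Col6a6 lie at or below 120 normalized counts in both genotypes.

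The 3 α3-like chains were near the bottom of the measured range. Col6a4 had 69.8, 120 and 55.0 normalized counts in Col6a1-/- replicates 1, 2 and 3, against 77.9, 94.4 and 73.6 in wildtype replicates 1, 2 and 3. Col6a5 had 54.6, 52.5 and 39.0 normalized counts in Col6a1-/- libraries in the same order, against 46.7, 39.5 and 66.8 in wildtype libraries. Col6a6 had 36.9, 43.7 and 32.0 in Col6a1-/- libraries, against 42.6, 40.6 and 39.7 in wildtype libraries. All 3 of these genes overlapped between genotypes, and none was called (limma adjusted p 0.905 for Col6a4, 0.936 for Col6a5 and 0.76 for Col6a6).

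No rise of the α3-like chains was detectable at this depth. The 95% intervals of the log2 fold change were -0.67 to 0.52 for Col6a4, -0.60 to 0.51 for Col6a5 and -0.62 to 0.36 for Col6a6, so that levels up to 144%, 142% and 128% of wildtype lay within them. The values rested on 55 to 110 reads per library for Col6a4, 36 to 69 for Col6a5 and 32 to 46 for Col6a6, against 8318 to 23065 reads for the core chains. Counting error alone is 17.7% of the value at the lowest Col6a6 count and 1.03% at the lowest Col6a1 count.

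Levels of different chains were compared per kilobase of the gene's exon union, the length over which a gene counter collects reads. Per kilobase, the order was Col6a1, Col6a2, Col6a3, Col6a4, Col6a5 and Col6a6 in the mean of each genotype. The levels of Col6a1 were 2283 ± 145 normalized counts per kilobase in Col6a1-/- and 4614 ± 453 in wildtype lungs (SD over 3 pools each). Col6a2 stood at 1143 ± 131 normalized counts per kilobase in Col6a1-/- and 2079 ± 274 in wildtype lungs. Col6a3 stood at 817 ± 102 normalized counts per kilobase in Col6a1-/- and 1054 ± 127 in wildtype lungs.

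Neighbours in that order were separate in every library among the core chains, since Col6a1 exceeded Col6a2 and Col6a2 exceeded Col6a3 per kilobase of exon union in all 6. Per kilobase of coding sequence the first of these steps was turned round in Col6a1-/- replicate 2, where Col6a1 held 44.0% and Col6a2 44.2% of the core chains. Among the low chains, Col6a4 averaged 9.58 ± 4.01 normalized counts per kilobase in Col6a1-/- and 9.61 ± 1.29 in wildtype lungs. Col6a5 averaged 5.17 ± 0.90 in Col6a1-/- and 5.42 ± 1.502 in wildtype lungs, and Col6a6 averaged 4.10 ± 0.64 in Col6a1-/- and 4.47 ± 0.16 in wildtype lungs, both per kilobase. The Col6a6 to Col6a5 ratio per kilobase was 0.695, 0.856 and 0.843 in Col6a1-/- replicates 1, 2 and 3. In wildtype replicates 1, 2 and 3 it was 0.936, 1.06 and 0.61, so the order was turned round in wildtype replicate 2. Whether Col6a5 and Col6a6 differed in level was not tested. Among tested genes with a known length, the level per kilobase of Col6a1 stood at the 96.6th to 97.1st percentile in Col6a1-/- libraries and at the 98.6th to 99th percentile in wildtype libraries. The percentiles of Col6a4 to Col6a6 ran from 2.29 to 12.7 in Col6a1-/- and from 3.37 to 10.4 in wildtype libraries.

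The 3 core chains made up nearly all collagen VI transcripts per kilobase, at 99.6% ± 0.095 (SD, n = 3) in Col6a1-/- and 99.7% ± 0.026 (SD, n = 3) in wildtype lungs. The summed level of the core chains was 4323, 4475 and 3931 normalized counts per kilobase in Col6a1-/- replicates 1, 2 and 3, against 7583, 6990 and 8670 in wildtype replicates 1, 2 and 3. The summed level in Col6a1-/- lungs thus averaged 54.8% of wildtype. The summed level of the α3-like chains was 18.01, 24.5 and 14.1 normalized counts per kilobase in Col6a1-/- libraries and 18.7, 19.7 and 20.1 in wildtype libraries, which overlapped.

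Ratios between chains within a library do not depend on how the library was scaled. The ratio of Col6a2 to Col6a1 per kilobase was 0.479, 0.533 and 0.488 in Col6a1-/- replicates 1, 2 and 3, against 0.439, 0.442 and 0.468 in wildtype replicates 1, 2 and 3. This ratio was 1.11-fold higher in Col6a1-/- lungs, a log2 difference of 0.15, with no overlap between genotypes, although Col6a1-/- replicate 1 and wildtype replicate 3 lay close together. It was the smallest shift of a ratio that involved 1 or both of the called chains.

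The ratio of Col6a3 to Col6a1 per kilobase was 0.408, 0.314 and 0.354 in Col6a1-/- replicates 1, 2 and 3, against 0.23, 0.222 and 0.233 in wildtype replicates 1, 2 and 3. It was 1.56-fold higher in Col6a1-/- lungs, a log2 difference of 0.64. The ratio of Col6a3 to Col6a2 per kilobase was 0.851, 0.589 and 0.726 in Col6a1-/- libraries and 0.523, 0.502 and 0.497 in wildtype libraries, in the same order. It was 1.41-fold higher in Col6a1-/- lungs, a log2 difference of 0.49. In both of these ratios every Col6a1-/- library lay above every wildtype library.

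The design limits what a test of these ratios can show. An exact permutation test of 3 against 3 libraries, two-sided, gave p = 0.1 for each of the 3 core ratios, the smallest value it can give, and an adjusted p of 0.167 over the 15 pairs of chains. The 3 core pairs and the 6 pairs of an α3-like chain with Col6a1 or Col6a2 did not overlap between genotypes, and the 6 pairs without Col6a1 or Col6a2 did overlap. Over all genes set against a chain in this way, 92.8% had a ratio to Col6a1 that was higher in Col6a1-/- with no overlap and 0.0296% a lower one. Set against Col6a2, 87.5% were higher and 0.0474% lower, and set against Col6a3, 37.8% were higher and 0.439% lower. A higher ratio to Col6a1 or Col6a2 is therefore common to most genes. The median gene differed by 1.02 on the log2 scale in its ratio to Col6a1 and by 0.87 in its ratio to Col6a2, against 0.64 and 0.49 for Col6a3.

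**Figure D2:**
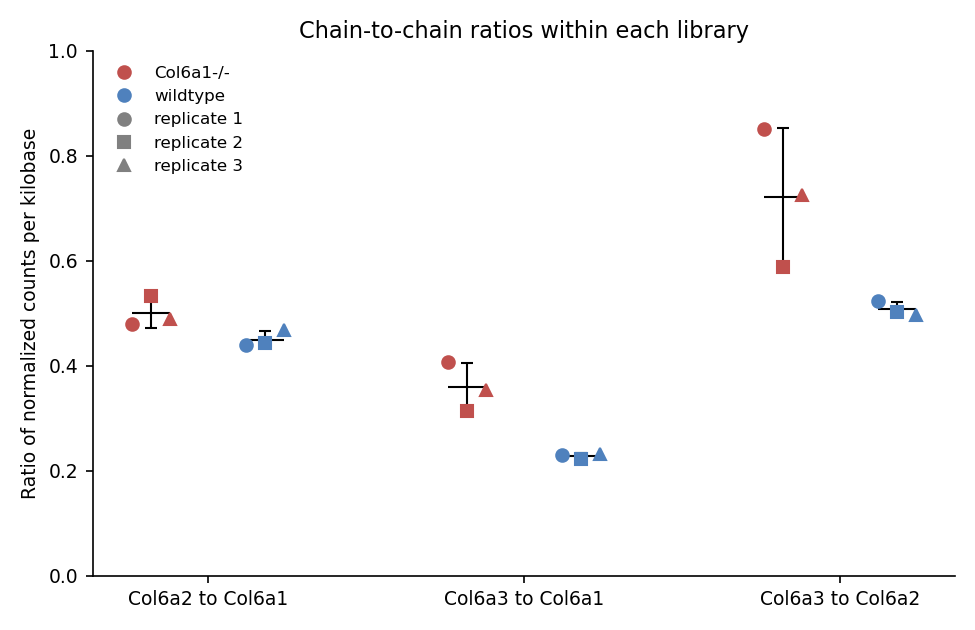
Ratios of normalized counts per kilobase between the core chains within each library, for 3 Col6a1-/- pools (red, left) and 3 wildtype pools (blue, right), with bars for the mean ± SD. The Col6a2 to Col6a1 ratio lies close together at 0.479 to 0.533 in Col6a1-/- and 0.439 to 0.468 in wildtype libraries, while the Col6a3 ratios are higher and more spread in Col6a1-/- libraries.

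The 3 ratios between core chains varied more over Col6a1-/- pools than over wildtype pools. The coefficient of variation of the Col6a3 to Col6a1 ratio was 13.2% over Col6a1-/- and 2.41% over wildtype libraries, and that of the Col6a3 to Col6a2 ratio was 18.2% over Col6a1-/- and 2.73% over wildtype libraries. For the Col6a2 to Col6a1 ratio it was 5.74% in Col6a1-/- and 3.52% in wildtype libraries. In wildtype the 3 core genes moved together, lowest in replicate 2 and highest in replicate 3, by -0.13 and 0.15 on the log2 scale around the genotype mean for Col6a1, -0.15 and 0.21 for Col6a2 and -0.17 and 0.18 for Col6a3. In Col6a1-/- lungs Col6a2 was highest in replicate 2, at 0.18 above its genotype mean, where Col6a3 lay 0.10 below its own, a deviation of -0.10. The difference in spread between genotypes was not tested.

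The level of one chain relative to another depended on the length used. The shift between genotypes did not, because the same annotated length was used for both genotypes. The labels do not say whether the Col6a1-/- allele changes the length of the Col6a1 transcript. The exon union of Col6a2 is 8326 bases and its longest coding sequence 3102 bases, against 4380 and 3075 bases for Col6a1, so the annotated Col6a2 exons include much sequence outside the main coding transcript. Per kilobase of coding sequence the Col6a2 to Col6a1 ratio averaged 0.942 in Col6a1-/- and 0.847 in wildtype lungs, and per kilobase of the longest transcript it averaged 0.793 and 0.714. The Col6a3 to Col6a1 ratio averaged 0.306 in Col6a1-/- and 0.194 in wildtype lungs per kilobase of coding sequence, where Col6a3 has 9852 bases. Col6a3 was thus the lowest of the core chains by each of these lengths.

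As shares of the core chains per kilobase of exon union, Col6a1 held 53.8% ± 0.71 in Col6a1-/- and 59.6% ± 0.70 in wildtype pools (SD, n = 3 in both). Col6a2 held 26.9% ± 1.77 in Col6a1-/- and 26.8% ± 0.63 in wildtype lungs. Col6a3 held 19.3% ± 2.31 in Col6a1-/- and 13.6% ± 0.23 in wildtype lungs. The shares of Col6a1 and Col6a3 did not overlap between genotypes and that of Col6a2 did, and the same held with the other lengths.

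**Figure D3:**
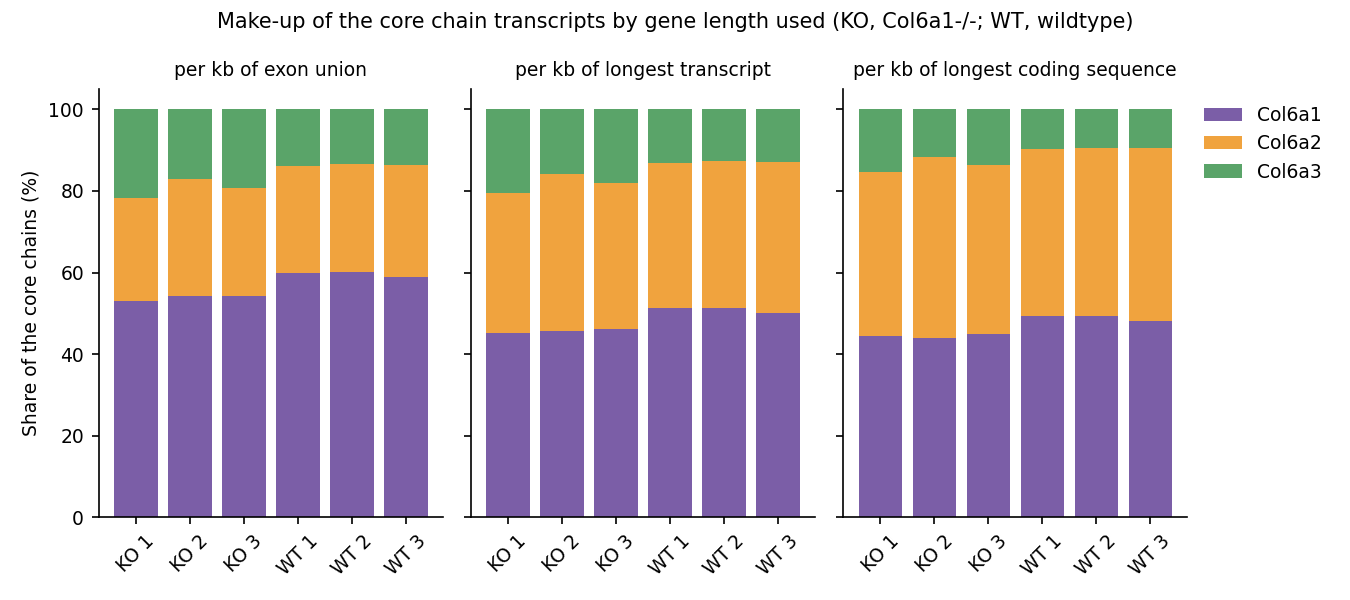
Share of each core chain gene in the sum of the core chains (percent, stacked to 100) for Col6a1-/- pools (KO) on the left and wildtype pools (WT) on the right of each panel, with the gene length set by the exon union, the longest transcript or the longest coding sequence. The mean Col6a2 share of the wildtype sum is 26.8% by exon union and 41.5% by coding sequence, while the larger Col6a3 share in Col6a1-/- pools is present in each panel.

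Collagen VI in the lung is made mainly by fibroblasts and other mural and stromal cells, and in bulk RNA fewer such cells and less RNA per cell cannot be told apart. None of the 14 fibroblast markers was called, where 0.0652% of all tested genes were. Of these markers 9 of 14 had lower estimates, against 48.3% of all tested genes. The median log2 fold change was 0.0098 over all tested genes and -0.05 over these markers. Their summed normalized counts were 123300 to 130806 in Col6a1-/- and 119380 to 149459 in wildtype libraries. Set against the mean log2 level of these markers within each library, Col6a1 stood at 1.35, 1.46 and 1.25 in Col6a1-/- replicates 1, 2 and 3, against 2.38, 2.33 and 2.51 in wildtype replicates 1, 2 and 3. The difference was -1.06 on the log2 scale, beside a log2 fold change of -1.01 for Col6a1 itself. The markers did not move as 1 group. Dcn (139% of wildtype), Lum (166%) and Wnt2 (117%) were higher with no overlap between genotypes. Pdgfra (80.7%) and Col13a1 (94.1%) were lower with no overlap, and the rest overlapped. Of all tested genes 24.9% had no overlap in either direction. Whether fibroblast number differed between genotypes was not tested.

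Col6a2 was lower relative to the fibroblast markers by the same measure, with a log2 difference of -0.90, and Col6a3 with a difference of -0.41. Each of these 3 chains showed no overlap between genotypes relative to the fibroblast markers, with p = 0.1 in the exact permutation test, the smallest it can give (0.1 adjusted over the 3 chains). The share of all tested genes with no overlap on this measure was not computed, so how common such a separation is remains unknown. By its own level Col6a3 overlapped between genotypes. After the spline correction for length and GC content, the difference of Col6a3 from the fibroblast markers was -0.14 (exact permutation p = 0.5), while those of Col6a1 and Col6a2 were -0.93 and -0.74 (exact permutation p = 0.1 each). Relative to the smooth muscle markers the difference of Col6a3 was -0.17 and its libraries overlapped, while those of Col6a1 and Col6a2 were -0.81 and -0.66 with no overlap. Relative to the pericyte markers Col6a3 also overlapped between genotypes, at -0.34.

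Summed markers of several other cell types did not overlap between genotypes. Fat tissue markers summed to 7901 to 12943 normalized counts in Col6a1-/- and 2725 to 6710 in wildtype libraries, club cell markers to 715915 to 903400 in Col6a1-/- and 545884 to 689745 in wildtype libraries, and red cell markers to 62062 to 102287 in Col6a1-/- and 41736 to 47783 in wildtype libraries. Endothelial markers summed to 114866 to 121863 in Col6a1-/- and 132323 to 143553 in wildtype libraries. Pericyte markers summed to 41264 to 43213 in Col6a1-/- and 44599 to 46179 in wildtype libraries, but did not move as 1 group. Pdgfrb (85.2% of wildtype) and Notch3 (82.6%) were lower and Trpc6 (120%) higher with no overlap, and the other pericyte markers overlapped. The pericyte list had a median log2 fold change of -0.04, and its mean log2 level overlapped between genotypes. Cardiac muscle markers summed to 25490 to 26919 in Col6a1-/- and 18842 to 24886 in wildtype libraries. No marker of these lists was called, where 0.0652% of all tested genes were. The part of these markers in the values of the collagen VI chains was not tested. Skeletal muscle markers summed to 581 to 705 in Col6a1-/- and 484 to 573 in wildtype libraries, with Myh4 at 0 in all 6. Cartilage markers summed to 16.9 to 41.5 in Col6a1-/- and 13.6 to 17.6 in wildtype libraries, which overlapped, and only 1 of 5 was tested.

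Sex of the pools and genotype cannot be told apart in the full set of libraries. With the male share as a covariate the log2 fold changes were -1.24 for Col6a1, -1.21 for Col6a2 and -0.53 for Col6a3, with limma adjusted p of 0.117, 0.117 and 0.614, and no gene was called in that fit. In the pools of like male share, Col6a1-/- replicate 3 and wildtype replicate 3, a single pair with no replicate, the log2 differences were -1.26 for Col6a1, -1.20 for Col6a2 and -0.65 for Col6a3. The ratio of Col6a3 to Col6a1 differed there by 0.61 on the log2 scale, and that of Col6a2 to Col6a1 by 0.061. These pools were matched by Y-linked genes only, and their Xist levels differed as given above.

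**Figure D4:**
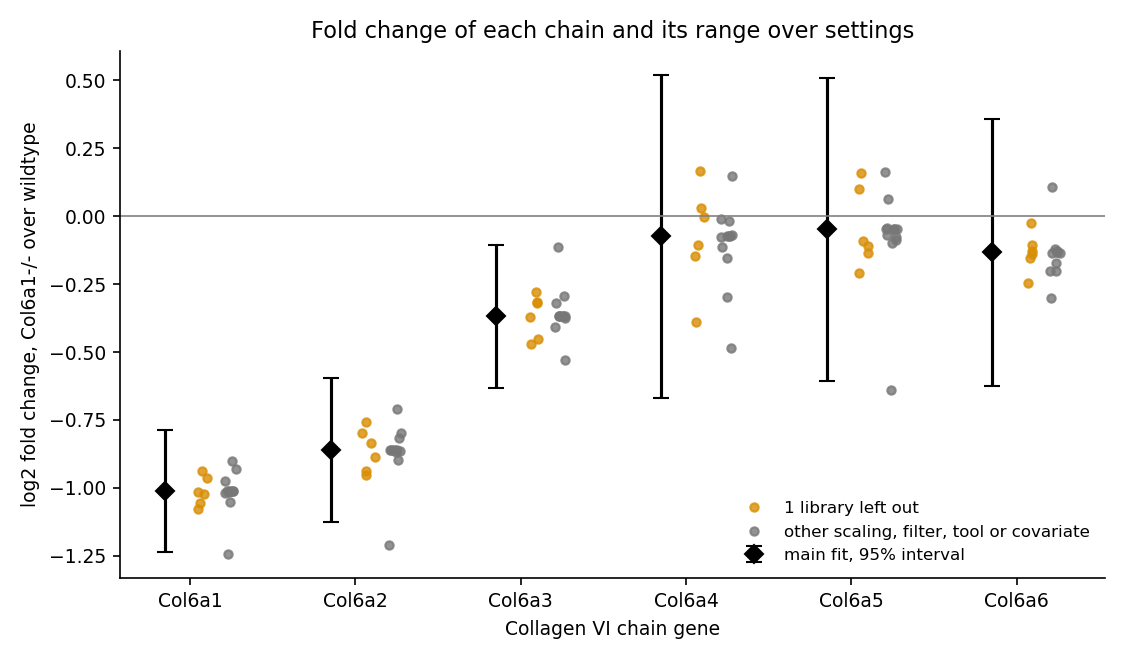
Log2 fold change of each collagen VI chain gene, Col6a1-/- over wildtype: black diamonds with 95% intervals from limma on all 6 libraries, orange points from fits without 1 library, and grey points from other scalings, filters, tools or covariates. Col6a1 stays between -1.24 and -0.90 and Col6a2 between -1.21 and -0.71, and Col6a3 is negative throughout but reaches -0.11. Col6a4 and Col6a5 take both signs, and Col6a6 is negative in all settings but 1. With the male share as a covariate Col6a4, Col6a5 and Col6a6 stand at -0.49, -0.64 and -0.30, the lowest point of each.

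The genes around Col6a1 were examined because Col6a2, the other called chain, is its neighbour on chromosome 10. Of 77 annotated genes within 1 Mb of Col6a1, 33 were tested, and Col6a1 and Col6a2 were the 2 called. The other 31 had log2 fold changes between -0.45 and 0.62 and a median of -0.04, against a median of 0.0098 over all tested genes. Among these 31, 7 were lower and 2 higher with no overlap between genotypes, against 14.2% and 10.7% of all tested genes. With the window at 5 Mb none of 174 other tested genes was called, where 0.0652% of all tested genes were. At so low a share, the absence of calls does not show that the neighbours were unchanged.

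Col18a1, a basement membrane collagen whose C-terminal fragment is endostatin, starts 440.4 kb from the Col6a1 start and stood at 79.3% of the wildtype level (limma adjusted p 0.103). It had 2602, 2572 and 2330 normalized counts in Col6a1-/- replicates 1, 2 and 3, against 3187, 2983 and 3290 in wildtype replicates 1, 2 and 3. Itgb2, the β2 integrin chain of leukocytes, stood at 73.4% (limma adjusted p 0.116). In the other direction Gstt2, a glutathione transferase, and S100b, a calcium-binding protein, stood at 144% (limma adjusted p 0.103) and 136% (limma adjusted p 0.269) of the wildtype level. The protein-coding genes nearest to Col6a2 on the far side, Ftcd and Spatc1l, were too low to be tested, and the only gene annotated between Col6a2 and Col6a1, the long non-coding RNA Gm35608, was not analysed here.

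**Figure D5:**
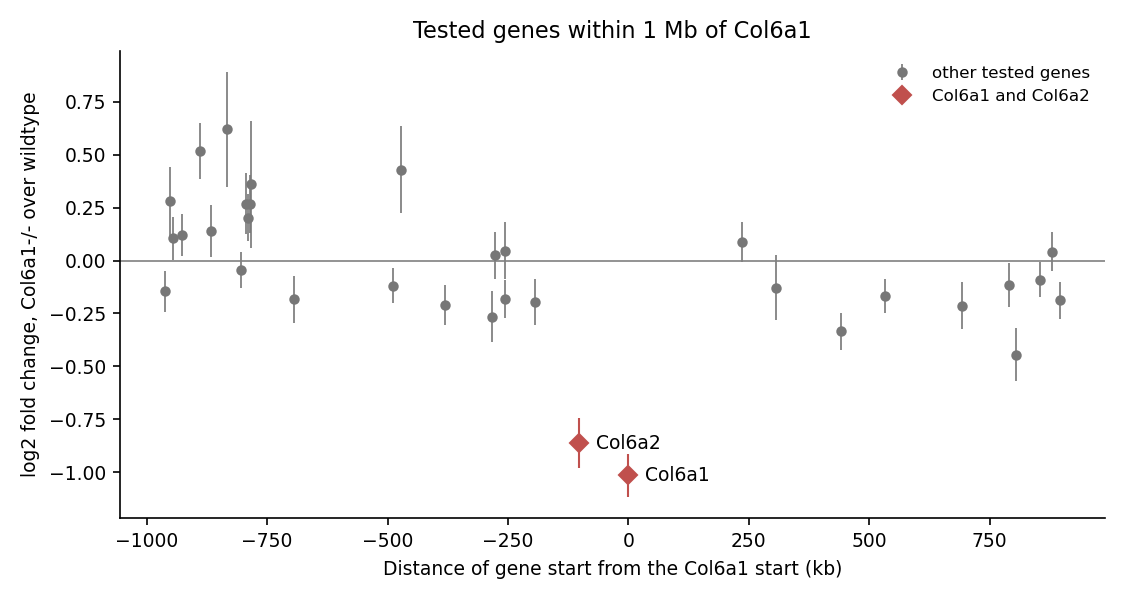
Log2 fold change (Col6a1-/- over wildtype, bars for the SE) of the 33 tested genes within 1 Mb of Col6a1, by the distance in kilobases of each gene's start from the Col6a1 start. Col6a1 and Col6a2 (red) lie at -1.01 and -0.86, and the other genes between -0.45 and 0.62.

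Partners of collagen VI were listed as receptors, binding matrix proteins and enzymes that modify or fold collagen chains. Of 29 listed genes 28 were tested and none was called in either direction, where 0.0652% of all tested genes were. In this list 22 of 28 estimates were lower, with a median log2 fold change of -0.21, against 48.3% lower and a median of 0.0098 over all tested genes. DESeq2 on recovered reads called 5 listed genes, 1 higher and 4 lower, where it called 5.06% of all genes with an adjusted p. The quasi-likelihood test of edgeR called 0 of them and 0.077% of all tested genes.

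Fn1, fibronectin, a matrix protein laid down beside collagen VI, had 19563, 15428 and 15535 normalized counts in Col6a1-/- replicates 1, 2 and 3, against 25983, 25704 and 30785 in wildtype replicates 1, 2 and 3. The genotypes of Fn1 did not overlap, and its limma adjusted p was 0.0693. Itga11, a collagen-binding integrin chain, stood at 61.7% of the wildtype level (limma adjusted p 0.101). Dcn, decorin, a small proteoglycan that binds collagen VI and is also on the fibroblast list, stood at 139% (limma adjusted p 0.0781), and Ppib, a prolyl isomerase of collagen folding, at 110% (limma adjusted p 0.44). The receptor genes had a median of -0.24 over 9 tested members, the matrix genes -0.10 over 10 and the assembly enzymes -0.21 over 9.

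Apart from the collagen VI chains, the pattern of Col6a1 over the 6 libraries was matched most closely, by Pearson's r of log2 values among the 12469 genes averaging 100 or more normalized counts, by Hsph1 (0.994), a heat shock protein, Pcdhga7 (0.989) and Trim16 (0.988). Pcdhga7 shares its 3′ exons with the other genes of the protocadherin gamma cluster, so its counts are uncertain. Col6a2 reached 0.989 with Col6a1, rank 3 of these genes and so above Trim16, whereas Col6a3 reached 0.849, rank 952. The genes most like Col6a2, apart from Col6a1 at rank 2, were Mbd1 (0.992), Rbm14 (0.989) and Neurl1b (0.986), and those most like Col6a3 included Tmem164 (0.99) and Grb10 (0.989). These values describe 6 libraries of 2 genotypes, and 435 genes had an r above 0.9 with Col6a1.

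In the authors' deposited table the log2 fold change was -0.92 for Col6a1 (adjusted p 9.03e-17), -0.76 for Col6a2 (adjusted p 1.77e-08) and -0.32 for Col6a3 (adjusted p 0.0598). DESeq2 rerun on recovered reads gave the same adjusted p to 3 digits with larger changes, of -1.02, -0.86 and -0.37. The deposited fold changes are therefore not the same measure as the limma values, and the cause of their smaller size was not tested. The values for Col6a4, Col6a5 and Col6a6 in the authors' deposited table were -0.0057, -0.037 and -0.066, with adjusted p of 0.99, 0.935 and 0.873. That table called 5.05% of the 14679 genes with an adjusted p, or 3.18% as lower in Col6a1-/- lungs, against 0.0652% by limma.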

How the data were processed

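Lung RNA of 3 Col6a1-/- and 3 wildtype pools, each of 2 animals, was sequenced, and the authors deposited DESeq2 normalized counts, a signal made of read counts per gene divided by a size factor for each library. Per the submitters' processing notes, which give no order, the tools were DESeq2 1.16.1, featureCounts from Subread 1.5.0p3, STAR 2.5.2b, R 3.4.1 and Trimmomatic 0.36, on GRCm38.p5. The authors' deposited table of the comparison holds log2 fold changes, p-values and adjusted p-values per gene, and its mean and test statistic are used as a score only to check the columns, per the file headers. Whole reads were recovered from the normalized counts within a tolerance of 1e-06.

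Values were taken as log2(normalized count + 1), so fold changes of low genes are understated, and 16879 genes with 10 or more normalized counts in 3 or more libraries were tested with limma-trend (limma 3.58.1, R 4.3.3), Benjamini-Hochberg adjusted over all of them, with a threshold of 0.05. limma, edgeR 4.0.16 and DESeq2 1.42.0 were tested on simulated data. Ratios were compared with exact two-sided permutation tests. Lengths and positions are from GENCODE M21, and promoters from RefSeq. The members and the gene lists were chosen with earlier results of these data known. Named genes were the 6 chains, the 2 partners and the 2 neighbours within 1 Mb (mean of 50 or more) with the smallest unadjusted p in each direction, and the 3 genes most like each core chain, of which 1 is not reported here. Nothing in the labels says whether pools came from separate litters, so p-values measure only the spread between these pools. Alternatives were another pseudocount (0.5 or 5), filter (50 or none), scaling, tool, quality weights, male share, length, replicate block and each library left out. Python 3.11.15 and scipy 1.17.1 were used.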

Additional observations from a re-analysis of the deposited data

How the results depend on the processing

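Col6a1, Col6a2 and Col6a3 were lower in Col6a1-/- lungs in every fit run. Without each library in turn the log2 fold change was -1.08 to -0.94 for Col6a1, -0.95 to -0.76 for Col6a2, -0.47 to -0.28 for Col6a3, -0.39 to 0.17 for Col6a4 and -0.21 to 0.16 for Col6a5. The calls lost on leaving out a library were that of Col6a1 without Col6a1-/- replicate 3 and that of Col6a2 without Col6a1-/- replicates 1 or 3 or wildtype replicates 1 or 2. With the male share as a covariate the values were -1.24 for Col6a1 and -1.21 for Col6a2, neither called (limma adjusted p 0.117). The value of Col6a2 was -0.86 with a filter of at least 50 (limma adjusted p 0.0526) and -0.86 with the replicate block (limma adjusted p 0.0536). In the pools of matched male share alone, an alternative added after seeing the data, it was -1.26 for Col6a1, -1.20 for Col6a2, -0.65 for Col6a3, -0.76 for Col6a5 and -0.30 for Col6a6, and the Col6a2 to Col6a1 log2 ratio differed by 0.061. Signs turned for Col6a4 (0.15), Col6a5 (0.16) and Col6a6 (0.11) with the trend on length and GC removed, for Col6a5 (0.065) with quality weights, for Col6a4 without Col6a1-/- replicate 3 (0.17) or wildtype replicate 2 (0.030), and for Col6a5 without Col6a1-/- replicate 3 (0.10) or wildtype replicate 3 (0.16). The cause was not tested.

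The count of called genes, 11 in the fit reported, was 742 with DESeq2, 3225 with quality weights, 93 with no filter, 81 with the trend removed, 26 with median centring, 7 with a filter of 50, 7 with the replicate block, 0 with the male share, and 0 to 1381 without each library in turn. Collagen VI partners called were 5 with DESeq2, 11 with quality weights, 1 with median centring, 1 with no filter and 0 to 3 without each library. Other genes within 1 Mb of Col6a1 called were 3 with DESeq2, 7 with quality weights and 0 to 1 without each library. The share of the core chains was 99.68% by coding length. Of the 9 genes most like a core chain, 0 were kept when r was taken on deviations from the genotype means. Same-numbered libraries deviated with r of -0.28, 0.24 and 7.2e-05. These values cannot show whether pools of the same number were handled together, which the labels do not state. With the replicate block the exact p of each core ratio was 0.25, the smallest that 3 pairs allow. Depth limits Col6a4, Col6a5 and Col6a6, with at most 110 reads per library.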
